A study of Mus musculus with 2 samples.

Results

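Venous blood endothelium lines the veins and venules of the uterus. Its cells were chosen here from single-cell RNA profiles of whole mouse uterus by their marker RNAs. A cell counted as blood endothelium with at least 4 of the 7 genes Pecam1, Cdh5, Kdr, Egfl7, Emcn, Cldn5 and Esam detected and no unique molecular identifier (UMI) of Epcam, Ptprc or Prox1. It counted as venous with at least 2 of Selp, Sele, Vwf and Ackr1 detected and more of these than of the arterial genes Sema3g, Dll4, Gja5 and Gja4. This rule found 376 venous cells among 1089 endothelial cells and 13935 kept cells of any kind. Of the venous cells, 187 came from the Mettl14 f/f library and 189 from the Mettl14 d/d library. The mirrored rule found 250 arterial cells, and 463 endothelial cells met neither rule.

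Whole uterus was taken on gestational day 4, and each genotype is represented by 1 library. The labels give f/f, the usual notation for floxed alleles, and d/d, the usual notation for alleles deleted by recombination. They name neither the Cre driver, the deleted exons, the strain or age of the mice, nor how many animals were pooled. METTL14 is the RNA-binding partner of METTL3 in the complex that methylates adenosines in messenger RNA. The f/f library held 8164 barcodes with 55080123 UMIs and the d/d library 6661 barcodes with 44745031 UMIs, of which 7610 and 6325 passed the filters. They shared 8 barcodes, and 0 barcodes were venous in both libraries. No difference between the genotypes can be checked against replicates, and no p-value is printed. Every interval is at 95% and covers counting error only.

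Endothelium of veins differs from that of arteries in its gene programme, with the transcription factor COUP-TFII (Nr2f2) and the receptor EphB4 as textbook venous marks. Postcapillary venules are the main site where leukocytes leave the blood. Their endothelium stores P-selectin (Selp) and von Willebrand factor (Vwf) in Weibel-Palade bodies, makes E-selectin (Sele) on activation, and carries the atypical chemokine receptor ACKR1. Around implantation uterine vessels become more permeable and are remodelled.

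One pair of marker RNAs led in both libraries. Selp with Vwf alone was detected in 71 f/f cells (38.0%) and 71 d/d cells (37.6%). Selp, Sele and Vwf without Ackr1 were detected together in 40 f/f and 53 d/d cells, and all 4 genes in 16 and 23 cells. At the edge of the rule, 105 f/f and 90 d/d venous cells held exactly 2 of the markers, with a median of 5538 and 6895 UMIs per cell. Just outside it lay 52 f/f and 59 d/d cells with exactly 1 marker and fewer arterial ones, with a median of 5612.5 and 5741 UMIs. A further 1 f/f and 10 d/d cells had 2 or more venous markers but as many or more arterial ones. Cells with all 4 markers were deeper, with a median of 14562 UMIs in the f/f and 9607 in the d/d venous cells, so membership moved with depth.

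Venous cells were 35.8% of f/f endothelium (31.7 to 40.1) and 33.3% of d/d endothelium (29.5 to 37.4), and these intervals overlapped. Each endothelial cell was also thinned to 2000 UMIs, a depth that 482 f/f and 514 d/d cells reached. The rule then found 77 and 108 venous cells, or 16.0% (12.8 to 19.6) and 21.0% (17.6 to 24.8). The direction between the libraries thus turned with depth, and no order is read from the shares. The median was 7161 UMIs per f/f and 8241 per d/d venous cell, and median genes per cell were 2788 and 2881. The median mitochondrial share of UMIs was 2.81% and 1.77%.

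**Figure D1:**
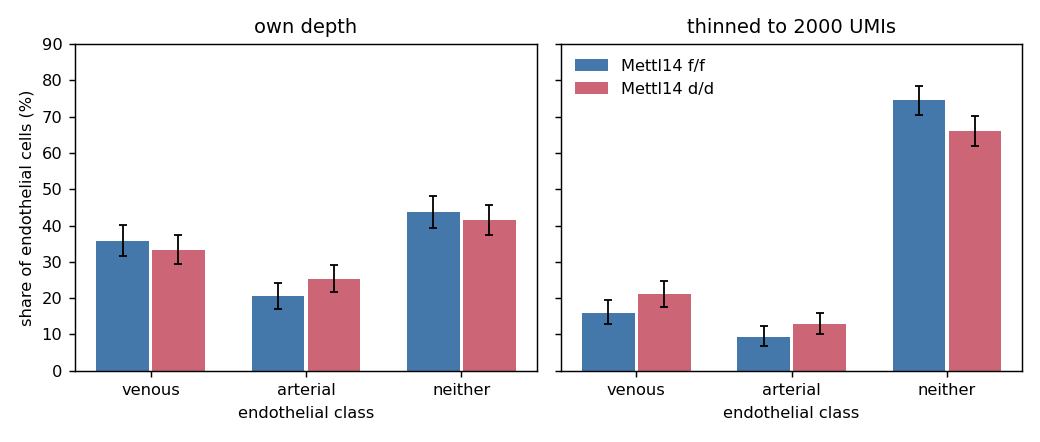
Bars give the percentage of endothelial cells in the venous, arterial and neither class for each library, at the cells' own depth and after thinning to 2000 UMIs, with exact binomial 95% intervals. The venous bars stand at 35.8% and 33.3% at own depth and at 16.0% and 21.0% after thinning.

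Selp stood at 420 CPM in f/f venous cells and 823 CPM in d/d venous cells, from 796 and 1455 UMIs in 170 and 174 cells. CPM gives a gene's UMIs per 1000000 UMIs summed over the cells of a class. The endothelium of neither class held 25.8 and 37.1 CPM of Selp. A Selp UMI was found in 0.489% of the f/f and 0.946% of d/d stromal cells, which should lack the gene, at a median of 6370 and 7038 UMIs per cell. Vwf stood at 271 and 450 CPM, in 168 and 181 venous cells, and Sele at 82.7 and 157 CPM, in 77 and 93 cells. Ackr1 stood at 56.4 and 47.5 CPM, in 57 and 52 cells. These 4 genes chose the cells, so their values describe the choice and no comparison between the libraries rests on them.

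Genes that mark other vessels ranged from 0 UMIs to clearly detected in the venous cells. Gja5 and Dll4 are arterial genes of the rule and Cldn5 is one of its endothelial genes, so their levels describe the choice of cells. Gja5, the connexin of arterial endothelium, had 0 UMIs in venous cells of both libraries, where up to 3 counts would be allowed, against 227 and 110 CPM in arterial cells. Dll4, an arterial Notch ligand, stood at 52.7 CPM in the f/f and 123 CPM in the d/d venous cells, below the 176 and 390 CPM of arterial cells. A Dll4 UMI was found in 27.8% of the f/f and 44.4% of the d/d venous cells, against 30.7% and 37.0% of the neither class. The claudin Cldn5 stood at 28.5 and 29.4 CPM in venous cells and at 487 and 527 CPM in arterial cells. Among lymphatic genes, Prox1 was at 0 by the rule, Reln had 0 UMIs in both libraries, and the hyaluronan receptor Lyve1 had 0 UMIs in the f/f and 5 in the d/d venous cells.

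Several genes outside the rule stood higher in venous cells than in the endothelium of neither class, in f/f and d/d alike. The rule formed these classes from the same cells, so this contrast is a description. Of 8545 genes with enough UMIs, 67 (0.784%) were at least 2-fold higher in venous cells in both libraries and 42 (0.492%) at least 2-fold lower. Rnd1, a small GTPase, stood at 53.2 CPM in the f/f and 177 CPM in the d/d venous cells, at log2 ratios to the neither class of 2.08 and 2.74. Vcam1, the adhesion molecule bound by leukocyte integrins, stood at 106 CPM in both, with log2 ratios of 1.74 and 2.91. Lepr, the leptin receptor, stood at 211 and 542 CPM, with ratios of 1.55 and 1.74 on the log2 scale, and was detected in 139 of 187 and 176 of 189 cells. The adhesion G protein-coupled receptor gene Adgrg6 had log2 ratios of 1.94 and 2.40. Also at least 2-fold higher in both libraries were Lrg1, a secreted glycoprotein of venules (1.20 and 1.99), the membrane-repair gene Myof (1.32 and 1.67), the integrin subunit Itgb4 (1.72 and 1.69) and the matrix glycoprotein Thbs1 (1.45 and 1.33).

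Some genes of capillary and arterial endothelium were lower in venous cells than in the neither class. Of 7 capillary genes with enough UMIs 3 were at least 2-fold lower in both libraries and 1 higher, with medians of -1.21 in f/f and -0.97 in d/d on the log2 scale. Of 15 arterial identity genes 2 were lower and 0 higher, with medians of 0.04 and -0.08. Gpihbp1, which holds lipoprotein lipase on capillary endothelium, stood at 35.3 CPM in the f/f and 21.5 CPM in the d/d venous cells, with log2 ratios of -1.47 and -3.34. The chemokine Cxcl12 stood at 76.4 and 252 CPM, with log2 ratios of -1.51 and -1.46. The retinol-binding protein gene Rbp7 had log2 ratios of -1.91 and -1.95, and the sialomucin Podxl -1.06 and -1.01. These values were alike in direction in both libraries.

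Genes listed for venous identity beyond the rule were mostly higher in venous than in arterial cells. Against the neither class 3 of 14 were at least 2-fold higher in both libraries (Adgrg6, Lrg1 and Vcam1), with medians over the list of 0.83 in the f/f and 1.27 in the d/d venous cells on the log2 scale. Against arterial cells 7 of 14 were at least 2-fold higher in both, where 98 of 7975 genes (1.23%) were higher and 149 (1.87%) lower. Nrp2, a receptor of venous and lymphatic endothelium, was among them, at 280 and 332 CPM in venous and 65.0 and 100 CPM in arterial cells. Nr2f2 stood at 398 and 400 CPM in venous and 184 and 215 CPM in arterial cells, and its log2 ratio was 1.11 in the f/f and 0.90 in the d/d venous cells. Stromal cells held 660 and 684 CPM of Nr2f2, and the part of free stromal RNA in the venous value was not tested. Ephb4, the other textbook mark, had log2 ratios to arterial cells of -0.01 and 0.12. Of 17 arterial identity genes with enough UMIs, 11 were at least 2-fold lower in venous than in arterial cells in both libraries and 0 were higher. Nr2f2 and Nrp2, which the rule did not use, were higher in venous than in arterial cells in both libraries, in the direction of the venous label, whereas Ephb4 RNA did not distinguish the classes.

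**Figure D2:**
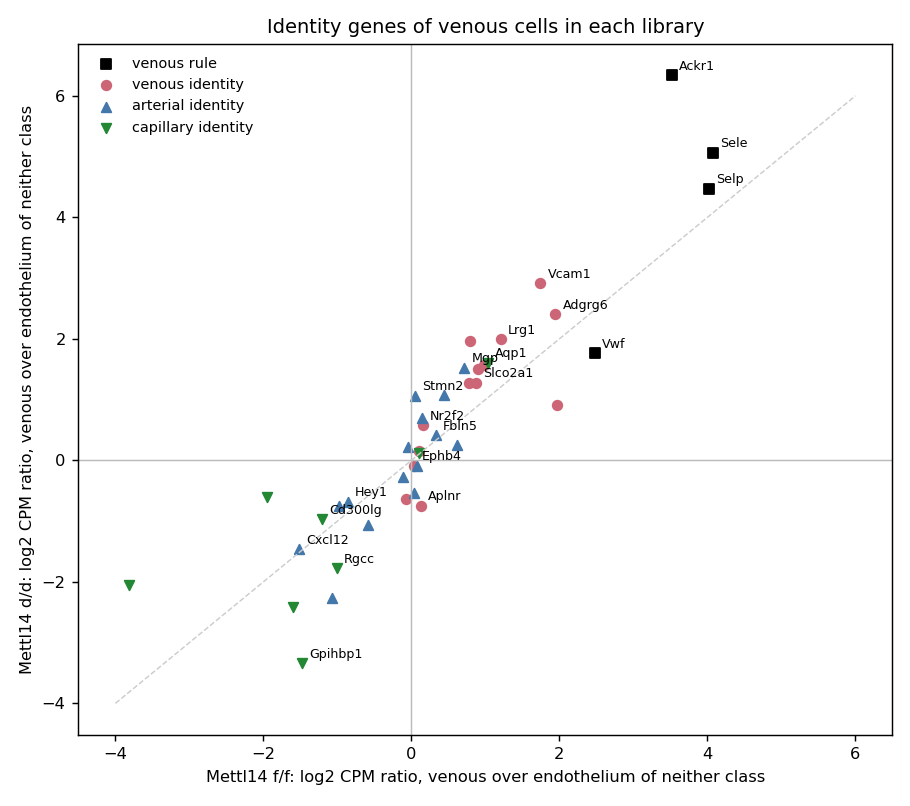
Each point is a gene of the venous rule or of the venous, arterial and capillary identity lists, placed by its log2 ratio of venous cells to the endothelium of neither class in f/f (x axis) and in d/d (y axis). The rule genes Selp, Sele, Vwf and Ackr1 and the identity genes Adgrg6, Lrg1 and Vcam1 lie above 1 on both axes, and Gpihbp1 lies at -1.47 and -3.34.

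The venous cells also varied among themselves. The 57 f/f and 52 d/d cells with an Ackr1 UMI held more Selp than the other venous cells, 589 against 353 CPM in the f/f and 920 against 781 CPM in the d/d venous cells. Their Nfkbia, an inhibitor of NF-kB that is itself an NF-kB target, was 432 against 289 CPM in the f/f and 946 against 679 CPM in the d/d venous cells. Other NF-kB targets did not all repeat this. Irf1, Nfkbiz and Tnfaip3 were higher in f/f cells with an Ackr1 UMI, at log2 ratios of 0.88, 0.59 and 1.31. In d/d their ratios were -0.17, -0.12 and 0.04. The 77 f/f and 93 d/d cells with a Sele UMI held 471 against 370 CPM of Selp in the f/f and 1045 against 572 CPM in the d/d venous cells. Nfkbia was higher in Sele cells too, by 0.43 and 0.18 on the log2 scale. Sele cells were deeper, with a median of 8693 against 6074 UMIs in the f/f and 9271 against 7654.5 in the d/d venous cells. What depth adds to these differences was not tested, and the splits use rule genes, so they are descriptions.

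The targeted gene did not differ beyond counting error between the venous cells of the libraries. Mettl14 had 31 UMIs in f/f (16.3 CPM) and 35 in d/d (19.8 CPM), a log2 value of 0.28 (-0.46 to 1.02), and was found in 27 of 187 and 28 of 189 cells. In stromal cells it stood at 15.0 and 2.51 CPM, a log2 value of -2.58, and in 9.21% and 1.81% of cells. The lower stromal level matches the label of the d/d library. The labels name neither the Cre driver nor the deleted exons, and the venous values rest on 31 and 35 UMIs. Whether the venous cells carry the deletion was not tested.

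The d/d and f/f venous cells differed in sets of stress, inflammatory, cell-cycle and vessel-identity genes. Of 9052 genes with at least 30 UMIs over both libraries, 541 (5.98%) were at least 2-fold higher in d/d and 424 (4.68%) at least 2-fold lower. The median log2 ratio of d/d over f/f over all these genes was -0.03. With each cell given equal weight the counts were 507 and 601, and with mitochondrial and ribosomal protein genes left out of the totals they were 471 and 513, so the balance of higher to lower genes turned with the scaling. In the text that follows, "higher" and "lower" without a class refer to d/d relative to f/f venous cells, and log2 values give that ratio.

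Hmox1 had the largest difference by its interval. This gene, for the heme-degrading enzyme heme oxygenase 1, lies on chromosome 8 at 75093621 to 75100589 on the plus strand. It stood at 30.6 CPM in f/f (23.2 to 39.5, 58 UMIs) and 1104 CPM in d/d (1056 to 1154, 1951 UMIs), a ratio of 36.1 (27.8 to 47.7). A UMI was found in 41 of the 187 f/f and 127 of the 189 d/d venous cells, and at equal depth in 7.18% and 49.2% of cells. The signal was uneven, since the 10 highest d/d cells held 38.3% of the UMIs. Hmox1 was also higher in the neither class (3.16 on the log2 scale), in arterial cells (4.36) and in stromal cells (3.07), against 5.17 in venous cells.

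The other 11 genes with the highest ratios included growth-arrest, circadian and immediate-response genes. Cdkn1a, which encodes the cell-cycle inhibitor p21, stood at 32.2 and 317 CPM, in 45 of the 187 f/f and 122 of the 189 d/d cells. Ccnd2, a D-type cyclin, stood at 45.3 and 267 CPM, and Hspb1, a small heat shock protein gene, at 504 and 2346 CPM. Both were above the f/f level by more than their counting error, at log2 2.56 and 2.22. The clock output factors Dbp and Hlf stood at 7.91 and 64.5 CPM and at 7.38 and 57.2 CPM. The activity-regulated gene Arc had 3 UMIs in the f/f and 57 in the d/d venous cells, the TWEAK receptor gene Tnfrsf12a 11.1 and 96.2 CPM, and the transcriptional regulator gene Sertad1 36.4 and 220 CPM. The interferon-inducible gene Ifi211 (log2 3.22), the cytochrome gene Cyp1a1 (3.32) and Rasgrf2, a guanine nucleotide exchange factor gene (3.42), completed this set.

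Histone and mitotic genes led the lower end. Hist1h2ap, a replication-linked histone gene on chromosome 13, stood at 305 and 12.4 CPM and was found in 48 of 187 and 9 of 189 cells. The mitotic genes Ccna2, Prc1, Cenpe and Tpx2 stood between 37.4 and 60.6 CPM in the f/f and between 7.36 and 13.6 CPM in the d/d venous cells. Pclaf, a clamp-associated replication factor gene, stood at 159 and 49.2 CPM. Outside the cell cycle, the imprinted gene Mest stood at 109 and 16.4 CPM, Tnfrsf9, which encodes the receptor 4-1BB, at 88.0 and 15.8 CPM, and Stra6, a retinol transporter gene, at 30.6 and 5.66 CPM. Cchcr1 stood at 36.4 and 6.79 CPM. The predicted genes Gm10076 and Gm26917 completed the 12, with log2 values of -2.58 and -2.22, and Gm10076 may share reads with near-identical copies.

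**Figure D3:**
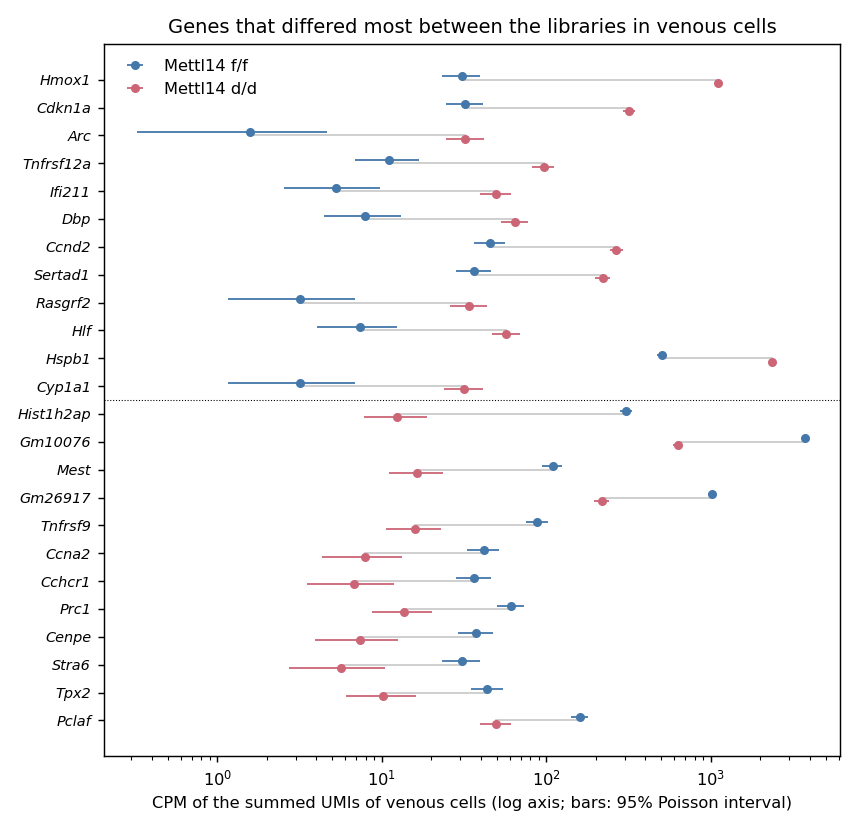
The 12 highest and 12 lowest genes by their d/d over f/f ratio in venous cells are shown by their CPM in each library on a log axis, with exact Poisson 95% intervals. Hmox1 spans from 30.6 to 1104 CPM, and Hist1h2ap from 305 down to 12.4 CPM.

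Immediate early and heat shock genes were higher in d/d venous cells as a group. Of 23 listed, all with enough UMIs, 19 were at least 2-fold higher and 0 lower (5.98% and 4.68% of all genes compared). Their median was 1.33 on the log2 scale. Their summed level was 11100 CPM in the f/f and 31056 CPM in the d/d venous cells. Fos, a subunit of the AP-1 factor, stood at 1059 and 3154 CPM, and Egr1, a zinc-finger early-response factor, at 1101 and 2963 CPM. The stress factor Atf3 stood at 280 and 1056 CPM, and the chaperone gene Hspa1a at 712 and 3114 CPM, with a per-cell median of 5.25 and 25.9 UMIs per 10000. The flow-responsive factors Klf2 and Klf4 stood at 354 and 831 CPM and at 139 and 511 CPM. The 4 genes under 2-fold were Ier2 (0.99), Socs3 (0.93), Btg2 (0.77) and Klf6 (0.42).

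The same list was higher in the other endothelium as well, with medians of 1.27 in the neither class and 2.30 in arterial cells. Stromal cells of the d/d library also held more Fos (log2 2.40) and Hspa1a (2.57), whereas Klf2 had -0.07 there and 1.23 in venous cells. The list was thus higher in d/d in all 3 endothelial classes. The difference between venous and stromal cells was not tested.

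Targets of NF-kB, the factor that drives inflammatory transcription in endothelium, were partly higher. Of 16 listed genes 15 had enough UMIs. Of these, 7 were at least 2-fold higher and 0 lower (5.98% and 4.68% of all genes compared), with a median of 0.83. Irf1, a transcription factor induced by interferon-gamma and NF-kB, stood at 94.3 CPM in the f/f and 423 CPM in the d/d venous cells, in 98 of 187 and 153 of 189 cells. Ier3, an early-response survival gene, stood at 507 and 1238 CPM, and Nfkbiz, a nuclear modulator of NF-kB, at 194 and 467 CPM. Nfkbia stood at 329 and 760 CPM (log2 1.21) and Tnfaip3, which encodes the NF-kB inhibitor A20, at 36.4 and 78.7 CPM (1.11). Without cells holding a UMI of Pdgfra, Pdgfrb or Rgs5, genes of stroma and pericytes, Nfkbia and Tnfaip3 had log2 values of 0.70 and 0.69. The manganese superoxide dismutase gene Sod2, a classic target, was at -0.06.

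Chemokine and cytokine genes were low in the venous cells and mostly higher in d/d. Of 23 listed only 9 had enough UMIs. Of these, 7 were at least 2-fold higher and 0 lower (5.98% and 4.68% of all genes compared), with a median of 1.72. Cxcl10, a chemokine that draws T cells and natural killer cells, stood at 28.5 and 118 CPM, in 29 of 187 and 54 of 189 cells. Cxcl12 stood at 76.4 and 252 CPM, and the macrophage growth factor gene Csf1 at 8.43 and 30.0 CPM. The neutrophil chemokine Cxcl1 stood at 16.3 and 43.6 CPM, in 18 and 40 cells. Cxcl2 and Il6 rested on few cells, 7 and 16 for Cxcl2 and 7 and 23 for Il6. The log2 value of Cxcl2 was 1.93, and it was -1.16 once likely doublets were left out. Il6 was at 1.81, and at -0.04 without cells holding Pdgfra, Pdgfrb or Rgs5 UMIs. Leukocytes held 125 and 3948 CPM of Cxcl2, and their part in the venous value of this gene was not tested.

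The promoters of Nfkbia, Cxcl1, Cxcl10 and the interferon gene Irgm1 are shown because these genes stood higher in d/d venous cells and carry the binding letters of NF-kB or of interferon-activated factors. Each is the 250 bases before the RefSeq transcription start in GRCm38.p6, read 5′ to 3′ on the gene's strand. Capitals mark the NF-kB letters searched, GGG, any 2 bases and TTTCC, in Nfkbia (chr12:55492648-55492897, minus strand) and Cxcl1 (chr5:90890995-90891244, plus strand). They mark the letters of the interferon-stimulated response element, GAAA, any 2 bases and GAAA, in Cxcl10 (chr5:92348890-92349139, minus strand) and Irgm1 (chr11:48871421-48871670, minus strand, 2 overlapping matches). Both strands were searched, so a match may read in the reverse complement.
Nfkbia: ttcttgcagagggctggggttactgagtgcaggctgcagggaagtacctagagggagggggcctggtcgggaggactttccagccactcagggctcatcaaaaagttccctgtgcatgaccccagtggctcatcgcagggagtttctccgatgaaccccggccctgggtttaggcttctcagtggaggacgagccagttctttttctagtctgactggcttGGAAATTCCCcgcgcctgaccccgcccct
Cxcl1: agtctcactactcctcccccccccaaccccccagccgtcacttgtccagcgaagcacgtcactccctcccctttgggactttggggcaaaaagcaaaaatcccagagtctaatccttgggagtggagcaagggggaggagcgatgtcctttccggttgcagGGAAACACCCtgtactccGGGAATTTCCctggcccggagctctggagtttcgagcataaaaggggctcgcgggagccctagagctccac
Cxcl10: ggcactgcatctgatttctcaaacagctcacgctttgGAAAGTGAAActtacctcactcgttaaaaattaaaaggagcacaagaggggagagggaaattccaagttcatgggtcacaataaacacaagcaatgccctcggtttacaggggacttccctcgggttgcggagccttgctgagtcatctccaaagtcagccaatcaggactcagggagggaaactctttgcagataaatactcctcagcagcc
Irgm1: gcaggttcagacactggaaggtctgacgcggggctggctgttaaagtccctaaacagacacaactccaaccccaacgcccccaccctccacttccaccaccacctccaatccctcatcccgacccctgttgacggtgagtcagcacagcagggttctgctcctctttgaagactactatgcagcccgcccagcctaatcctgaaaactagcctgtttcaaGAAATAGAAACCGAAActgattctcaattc
The NF-kB match of Nfkbia began 29 bases before the start, and Cxcl1 held 2 such matches 89 and 71 bases before it. A gene can have several starts and so several windows. The NF-kB letters stood in 464 of 32851 such windows of the genome (1.41%), in 447 of 27025 genes, and the interferon letters in 978 windows (2.98%), in 936 genes. Counted by gene, 4 of the 11 NF-kB targets with a window held the NF-kB letters (Nfkb2, Nfkbia, Rel and Tnfaip3), as did 4 of 8 chemokine and cytokine genes (Csf1, Cxcl1, Cxcl2 and Il6). Of the interferon genes 10 of 15 held the interferon letters. Of these 10, Irgm1, Isg15, Ifit3 and Igtp were at least 2-fold higher in d/d venous cells and the others were not. Iigp1, Irf7 and Ifit2, also at least 2-fold higher, were not among the genes with the letters, either for lack of a match or of a window. A match is a feature of the sequence and not a measured binding site.

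Interferon-stimulated genes were unevenly higher. Of 22 listed, all with enough UMIs, 7 were at least 2-fold higher and 0 lower (5.98% and 4.68% of all genes compared). The median was 0.51. Iigp1, an interferon-inducible GTPase of cell-autonomous defence, stood at 227 CPM in the f/f and 888 CPM in the d/d venous cells, in 125 of 187 and 163 of 189 cells. Irgm1, of the same family, stood at 43.7 and 132 CPM, and the ubiquitin-like modifier gene Isg15 at 64.3 and 156 CPM. Ifit3, Irf7, Ifit2 and Igtp were also at least 2-fold higher. Ly6a, a surface protein gene also named Sca-1, was at -0.26 on the log2 scale. The median of the list was 0.91 in the neither class and 0.61 in arterial cells.

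Genes of antigen presentation were higher in part. Of 19 listed genes 18 had enough UMIs, and their median was 0.88. At least 2-fold higher were 8 and lower 0 (5.98% and 4.68% of all genes compared). Of these 8, 4 were class I genes (H2-D1, H2-Q4, H2-Q6 and H2-T23) and 4 belonged to the class II pathway (Cd74, H2-Aa, H2-Ab1 and H2-Eb1). The class I genes H2-D1 and H2-Q6 stood at 610 and 1279 CPM and at 103 and 349 CPM, although members of this family are near-identical and reads can be split between them. B2m, the light chain of class I, stood at 1182 and 2018 CPM (log2 0.77) and H2-K1 at 0.65, both under 2-fold. Of the class II genes, Cd74 stood at 22.1 and 63.4 CPM, in 25 and 29 cells. With likely doublets left out, Cd74 (0.94), H2-Aa (0.91), H2-Ab1 (0.34) and H2-Eb1 (0.28) were all below 2-fold. Leukocytes held 3973 and 6604 CPM of Cd74, so the class II values cannot be told apart from leukocyte RNA in these barcodes.

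Most genes for leukocyte adhesion differed by less than 2-fold. Of 17 listed genes present in the data 12 had enough UMIs. Of these, 2 were at least 2-fold higher and 0 lower (5.98% and 4.68% of all genes compared), with a median of 0.15. Icam1, the ligand of leukocyte beta-2 integrins, stood at 114 and 325 CPM, in 102 of 187 and 150 of 189 cells. Jam2, a junctional adhesion molecule, stood at 68.5 and 233 CPM, in 84 and 146 cells. Vcam1 was level at 106 CPM in both, and the sialomucin Cd34 was at 525 and 638 CPM. Thinned to equal depth, Icam1 was found in 20.4% of the f/f and 40.9% of d/d venous cells. In 500 stromal cells of each library thinned the same way the shares were 4.60% and 12.4%. In stromal cells at their own depth they were 10.5% and 27.1%.

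Genes of blood clotting and vessel tone showed little common direction. Of 26 listed 22 had enough UMIs, 2 were at least 2-fold higher, 2 lower, and the median was 0.46. Over all genes compared, 5.98% were higher and 4.68% lower. The anticoagulant receptor gene Thbd stood at 143 and 263 CPM and the nitric oxide synthase gene Nos3 at 66.9 and 125 CPM, both just under 2-fold. The protein C receptor gene Procr stood at 218 and 179 CPM. Plaur, the urokinase receptor gene, stood at 30.0 and 86.0 CPM. The tissue factor gene F3 and the endothelin receptor gene Ednrb were lower, at log2 -1.44 and -1.14. The vasoconstrictor gene Edn1 stood at 125 and 79.2 CPM.

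Genes of junctions, caveolae and permeability mostly differed by less than 2-fold. All 19 with enough UMIs lay above 0 on the log2 scale, although Afdn, at 0.04, lay within the shift that leaving mitochondrial and ribosomal protein genes out of the totals made. Of them 1 was at least 2-fold higher, a share near the 5.98% of all genes, and the median was 0.37. That gene was Cav2, a caveolin, at 71.2 and 205 CPM. Its partner Cav1 stood at 412 and 797 CPM, and Calcrl, the receptor of adrenomedullin, at 182 and 354 CPM. Plvap, which forms the diaphragms of fenestrae, stood at 222 and 375 CPM. Medians of the list were 0.34 in the neither class and 0.24 in arterial cells.

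Aplnr, the receptor of the peptide apelin and a gene of venous endothelium, was the only member of the venous identity list at least 2-fold different between the libraries. It lies on chromosome 2 at 85136225 to 85139923 on the plus strand. It stood at 482 CPM in f/f (451 to 514, 914 UMIs) and 195 CPM in d/d (175 to 217, 345 UMIs), a log2 value of -1.30 (-1.49 to -1.12). A UMI was found in 171 of the 187 f/f and 116 of the 189 d/d cells, and the per-cell median was 5.06 and 1.20 UMIs per 10000. At equal depth 58.6% and 26.0% of venous cells held one. The shares were 58.0% and 40.0% in the neither class and 19.8% and 11.4% in arterial cells. Aplnr thus set the venous cells apart from arterial cells but not from the neither class. The log2 values in the neither class and in arterial cells were -0.43 and -0.32. The difference between the classes was not tested. Its ligand gene Apln, made by tip-like capillary cells, had 26 and 9 UMIs in venous cells.

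The rest of the venous identity list differed by less than 2-fold. Over all 14 genes 0 were at least 2-fold higher and 1 lower (5.98% and 4.68% of all genes compared), with a median of 0.15. Nr2f2 was at 0.01, Nrp2 at 0.24 and Ephb4 at 0.69. Lrg1 stood at 408 and 229 CPM, and Slco2a1, a prostaglandin transporter gene, at 131 and 229 CPM. Neither reached 2-fold.

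Arterial and capillary genes were higher in d/d venous cells for several members. Of 21 arterial identity genes 16 had enough UMIs, with a median of 0.86. Among the 16, 6 were at least 2-fold higher and 1 lower (5.98% and 4.68% of all genes compared). Efnb2, the arterial ligand of EphB4, stood at 31.1 and 84.9 CPM, against 252 and 351 CPM in arterial cells. Sox17, a factor of arterial specification, stood at 83.8 and 204 CPM, against 240 and 494 CPM in arterial cells. Hey1, a Notch-induced repressor, had 20 and 59 UMIs, and Stmn2 29 and 128. Notch4 was lower, with 33 and 11 UMIs. The medians of the list were 0.63 in the neither class and 0.61 in arterial cells, so the arterial genes were higher in all 3 classes by median. A total of 65 f/f and 91 d/d venous cells held a UMI of an arterial rule gene, and their part in these values was not tested.

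Of 15 capillary genes only 8 had enough UMIs, 4 were at least 2-fold higher and 2 lower (5.98% and 4.68% of all genes compared). The water channel gene Aqp1 stood at 168 and 647 CPM, in 107 of 187 and 179 of 189 cells. It was higher in venous cells than in the neither class, at 82.2 and 212 CPM, in both libraries. Rgcc, a cell-cycle regulator gene of capillaries, stood at 68.5 and 163 CPM. Car4, the carbonic anhydrase of capillary surfaces, had 41 and 6 UMIs, and Cd300lg 13 and 84. Fabp4 rested on 2 f/f and 6 d/d cells.

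Signalling genes of growing vessels moved in part. Of 28 genes listed for VEGF, angiopoietin and BMP signalling 25 had enough UMIs, 6 were at least 2-fold higher and 2 lower, with a median of 0.50. The shares over all genes were 5.98% higher and 4.68% lower. The VEGF receptor gene Flt1 stood at 351 and 720 CPM, and Kdr, the main VEGF receptor and a rule gene, at 311 and 449 CPM. The BMP target Id1 stood at 93.8 and 287 CPM, the inhibitory Smad gene Smad7 at 25.8 and 97.3 CPM, and the ligand gene Bmp4 at 34.8 and 104 CPM. Flt1 fell just under 2-fold in 5 of the alternative settings, where its log2 values lay between 0.93 and 0.97. The angiopoietin receptor gene Tek (0.50) and the Tie2 ligand gene Angpt2 (-0.04) were under 2-fold. In the Notch list, 10 of 13 had enough UMIs, 3 were higher (Dll1, Hes1 and Hey1) and 1 lower (Notch4). Hes1, the general Notch target, stood at 555 and 1304 CPM, and its log2 value of 1.23 compared with 3.56 in stromal cells.

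**Figure D4:**
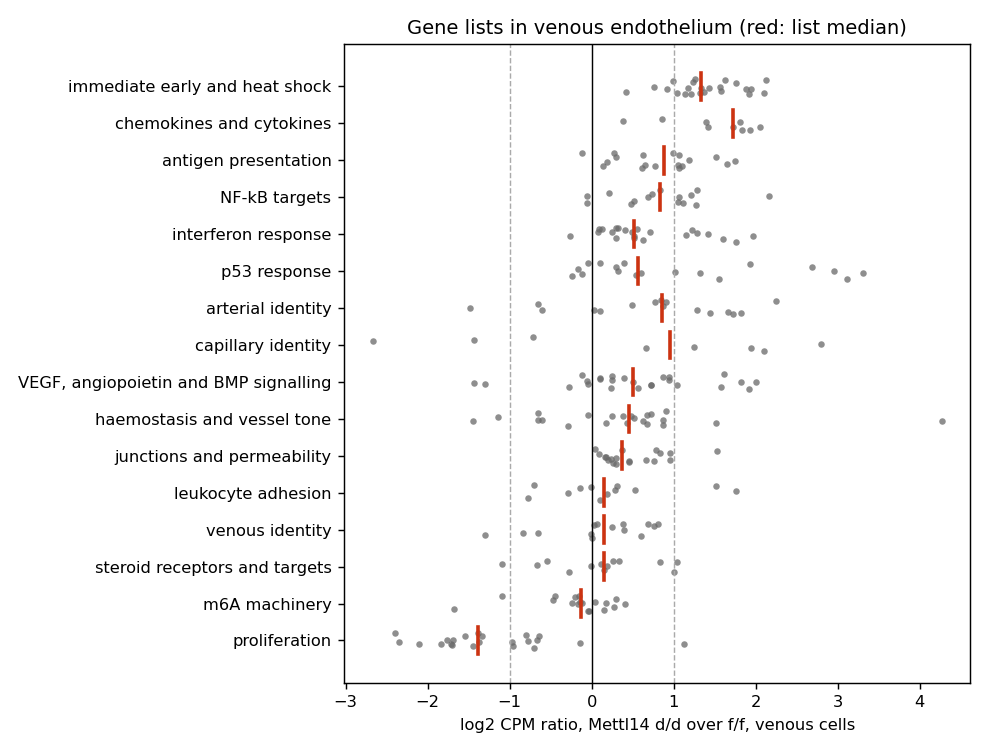
Each point is a gene with at least 30 UMIs, placed by its log2 ratio of d/d over f/f in venous cells, in rows by gene list, with red bars at the list medians and dashed lines at 2-fold. The medians run from 1.72 for chemokines and cytokines and 1.33 for immediate early and heat shock genes to -1.38 for proliferation genes.

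Proliferation genes were lower in d/d venous cells. Of 24 listed 22 had enough UMIs, with a median of -1.38. Among the 22, 13 were at least 2-fold lower and 1 higher (4.68% and 5.98% of all genes compared). Top2a, the topoisomerase of dividing cells, stood at 130 and 40.2 CPM, and Mki67, the Ki-67 gene, at 72.7 and 24.9 CPM. A Top2a UMI was found in 57 of 187 f/f cells (30.5%) and 14 of 189 d/d cells (7.41%). At equal depth the shares were 15.5% (10.5 to 21.6) and 3.87% (1.57 to 7.81). In d/d the 10 highest cells held 87.3% of the Top2a UMIs, against 41.7% in f/f. Pcna, the replication clamp and also a p53 target, was the exception, at 89.6 and 195 CPM. The microtubule regulator gene Stmn1 stood at 378 and 193 CPM.

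The other endothelial classes had lower proliferation genes too, with medians of -0.45 in the neither class and -1.09 in arterial cells. At their own depth, cells with a Top2a UMI were 26.3% of the f/f and 15.7% of the d/d neither class and 35.5% and 9.09% of arterial cells. Thinned to equal depth they were 17.5% and 9.05% of the neither class and 18.8% and 4.88% of arterial cells. Stromal cells held a Top2a UMI at equal depth in 4.60% of the f/f and 2.00% of d/d cells. When venous cells with a Top2a or Mki67 UMI were left out, 114 f/f and 170 d/d cells remained. Aplnr was then at -1.63 and Hmox1 at 5.70 on the log2 scale, and Bmp4 was at 0.96, just under 2-fold.

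Genes of the p53 response were higher in part. Of 18 listed, all with enough UMIs, 8 were at least 2-fold higher and 0 lower (5.98% and 4.68% of all genes compared). The median was 0.57. Beside Cdkn1a, the growth-arrest gene Gadd45b stood at 21.1 and 182 CPM, and the stress gene Ddit4 at 53.8 and 134 CPM. The anti-proliferative gene Tob1 stood at 55.3 and 162 CPM. Mdm2 (0.39), Bax (-0.04) and Ccng1 (-0.16), core targets of p53, were under 2-fold.

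**Figure D5:**
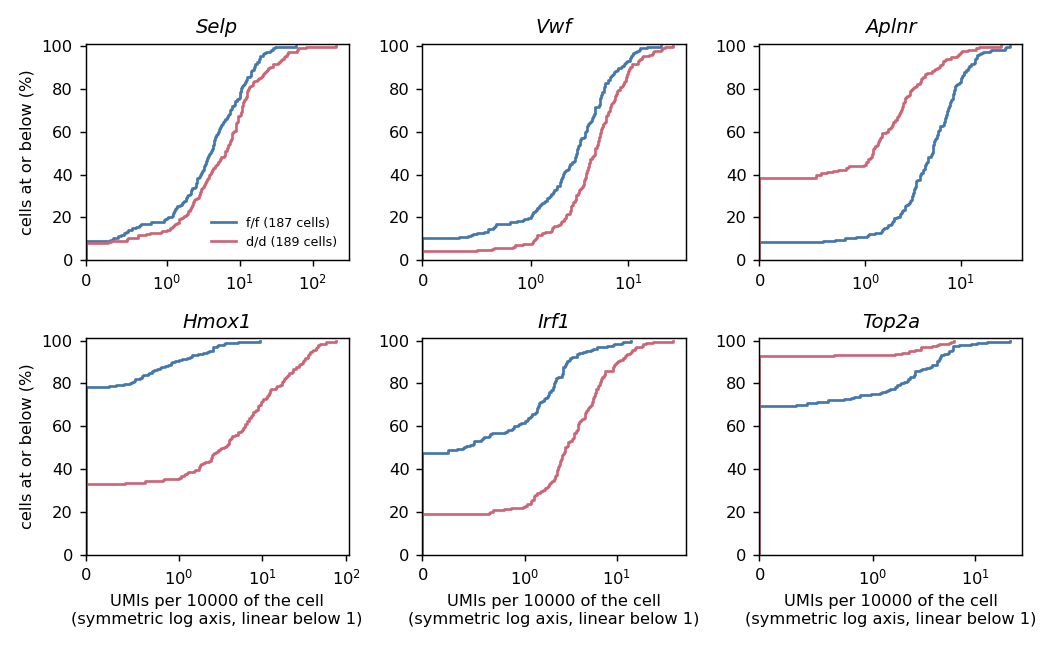
Curves give the cumulative share of venous cells at or below each level of Selp, Vwf, Aplnr, Hmox1, Irf1 and Top2a, in UMIs per 10000, for f/f and d/d. The Aplnr curve of d/d lies to the left of f/f (medians 1.20 and 5.06), and those of Hmox1 and Irf1 lie to the right (medians 3.53 and 0 for Hmox1, 2.77 and 0.409 for Irf1).

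Of 20 genes of the m6A machinery 18 had enough UMIs, 0 were at least 2-fold higher and 2 lower, with a median of -0.13. Among all genes compared, 4.68% were lower. The lower ones were the methyltransferase genes Mettl3, with 32 and 14 UMIs, and Mettl16, with 55 and 16.

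Steroid receptor genes had no common direction in venous cells. Pgr, the progesterone receptor gene, stood at 56.9 and 26.6 CPM, in 66 and 24 cells. Stromal cells held 265 and 212 CPM of Pgr, and the part of free stromal RNA in the venous value was not tested. Esr1, the estrogen receptor gene, stood at 85.9 and 58.9 CPM, and Nr3c1, the glucocorticoid receptor gene, at 125 and 222 CPM. Of the 13 listed genes with enough UMIs 2 were at least 2-fold higher (Sgk1 at 1.05 and Tsc22d3 just past 2-fold, both steroid-induced), 1 was lower (Pgr), and the median was 0.15. Across all genes 5.98% were higher and 4.68% lower.

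Markers of other cell types were present and moved in their own directions. No UMI of Pdgfra, Pdgfrb or Rgs5 was found in 100 of the 187 f/f and 144 of the 189 d/d venous cells. The 8 stromal markers summed to 2030 CPM in the f/f and 2018 CPM in the d/d venous cells, against 14125 and 23523 CPM in stromal cells. Of them 2 (Pdgfra and Dpt) were at least 2-fold lower and 0 higher, with a median of -0.21. That median was -1.20 with likely doublets left out and -0.80 with at least 3 of 4 venous markers. Pericyte markers summed to 233 and 72.4 CPM, with all 4 measured members at least 2-fold lower, and Rgs5 at 153 and 38.5 CPM. Smooth muscle markers summed to 576 and 930 CPM, with 2 of 7 at least 2-fold higher and a median of 0.58, which was -0.46 with likely doublets left out. Leukocyte markers summed to 491 and 709 CPM, with 3 of 6 measured members at least 2-fold higher and a median of 1.14, which was -0.63 with likely doublets left out, while Ptprc was at 0 by the rule. Epithelial markers summed to 50.1 and 11.9 CPM, lymphatic markers to 95.9 and 85.4 CPM, and red cell and platelet markers to 34.8 and 43.0 CPM. The part of these RNAs in the results above was not tested beyond the settings in which cells were left out. Beside the 30.6 and 1104 CPM of venous cells, Hmox1 stood at 9.64 and 81.1 CPM in stromal cells, 11.6 and 85.5 CPM in mural cells and 37.1 and 414 CPM in leukocytes.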

How the data were processed

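Whole uterus was profiled by droplet 3′ single-cell RNA sequencing in 1 f/f and 1 d/d library. The authors deposited a matrix of raw UMI counts for each library, with no normalization, per the file headers. The submitters' processing notes name Cell Ranger 3.0.1 and mm10, whereas the headers name cellranger 6.0.1. The lowest barcode held 500 UMIs. Of 31053 gene rows, 36 with a repeated symbol were kept apart.

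A cell needed 1000 or more UMIs, 500 or more genes and no more than 20% mitochondrial UMIs. Doublets were kept in the values given, as the rule for venous cells has it. In an alternative, the barcodes with the highest Scrublet scores (scanpy 1.11.5) were removed, 0.8% per 1000 barcodes, which marked 21 venous cells in each library. The automatic Scrublet threshold failed in f/f, where it marked 0 barcodes.

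For each library the UMIs of a class's cells were summed per gene, and CPM is that sum relative to all UMIs of the class. Genes with at least 30 UMIs over both libraries were compared, and higher or lower means at least 2-fold. No test was made, because cells of 1 library are not replicates. Sums carry exact Poisson, shares exact Clopper-Pearson and ratios conditional exact 95% intervals. Only the ratio intervals were tried on simulated data, drawn as Poisson sums, which is the model they assume. The uneven spread of UMIs over cells was not simulated. Ratios against 0 counts used 3 counts over the class as a bound. Stroma and leukocyte reference cells were taken by marker rules of the same kind.

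The genes named are those of the rule, the 12 highest and 12 lowest by the interval bound nearest 0 in each contrast, with 50 or more UMIs and 20 or more CPM where they stood higher, and 30% or more of the level in the highest reference class, and up to 6 members of each list by the same ranking with those that define it. Some other list members are named after their values were seen. The venous cells and the gene lists were chosen with earlier results of these data known. Alternatives changed the cell filter, doublets, the marker rule, depth, scaling, the UMI minimum, the weight of cells and the cells with UMIs of other classes or of Top2a or Mki67. The last and equal weights were chosen after seeing the data. Promoters came from RefSeq for GRCm38.p6. Python 3.11.15, numpy 2.4.6, scipy 1.17.1, pandas 2.3.3, matplotlib 3.10.9, R 4.3.3 and edgeR 4.0.16 (TMM scaling) were used. Some listed genes are counted with their lists but are not reported here by name.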

Additional observations from a re-analysis of the deposited data

How the results depend on the processing

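The venous share moved with the rule and with depth. It was 15.7% in f/f and 17.5% in d/d with at least 3 of 4 markers, 16.0% and 21.0% thinned to 2000 UMIs, and 34.6% and 39.0% without cells holding Pdgfra, Pdgfrb or Rgs5 UMIs. The number of genes at least 2-fold higher in d/d was 541, and 148 thinned, 281 with at least 100 UMIs and 2147 with no minimum. The number at least 2-fold lower was 424, and 279 with at least 3 of 4 markers, 107 thinned, 261 without cells holding Pdgfra, Pdgfrb or Rgs5 UMIs, 114 with at least 100 UMIs and 1796 with no minimum. Genes at least 2-fold higher than in the neither class numbered 67, and 41 with at least 3 of 4 markers. With doublets removed 509 were higher and 446 lower, and 442 of 489 and 303 of 331 genes still measured kept their call. TMM scaling gave 568 and 404. Leaving mitochondrial and ribosomal protein genes out of the totals moved the median of all genes from -0.03 to -0.10.

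Values that changed sign were the leukocyte and smooth muscle marker medians, at -0.63 and -0.46 with doublets removed, the steroid list median, at -0.008 with at least 3 of 4 markers and -0.042 without cells holding Pdgfra, Pdgfrb or Rgs5 UMIs, the leukocyte adhesion median, at -0.050 with cells weighted equally, Mettl14, at -0.21 so weighted and -0.030 without those cells, Cxcl2, at -1.16 with doublets removed, -1.81 thinned and -0.071 without cells holding Pdgfra, Pdgfrb or Rgs5 UMIs, Il6, at -0.81 thinned and -0.042 without those cells, and Cd74, at -0.75 thinned. The cause was not tested. Over the named genes and the alternatives, 1364 values kept their direction and call, 104 fell below 2-fold, 9 moved and 6 that were at least 2-fold in the main setting changed sign. The settings with no minimum and with at least 100 UMIs only changed which genes were counted. Their 128 kept values each were therefore fixed in advance. TMM scaling, with factors of 1.008 and 0.992, also kept 128. Thinning kept 59, while 21 fell below 2-fold, 4 moved and 3 changed sign. Thinning left 2135 genes with enough UMIs, which limits what it shows. No paired analysis was possible because each genotype has 1 library. No alternative could leave out a replicate for the same reason.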

Other observations

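Genes of the circadian clock differed between the libraries in venous cells, a set chosen after its values were seen. Beside Dbp (log2 3.03 in d/d over f/f) and Hlf (2.95), the repressors Per2 (2.19), Nr1d1 (1.93), Nr1d2 (1.49), Cry1 (1.21) and Per3 (1.20) and the output factor Tef (1.61) were at least 2-fold higher. Arntl, the activator that drives them, was at -0.22 and Per1 at 0.34. The hour at which the tissue was taken is not in the labels, so time of day and genotype cannot be told apart.

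Several further genes were at least 2-fold higher in d/d venous cells. The metallothionein genes Mt1 and Mt2 stood at 78.0 and 640 CPM and at 46.9 and 225 CPM, and the autophagy receptor gene Sqstm1 was at 1.88. Other genes of the oxidative stress factor NRF2, to which Hmox1 also belongs, were under 2-fold, with Nqo1 at 0.10, Txnrd1 at 0.28, Gclm at 0.54 and Srxn1 at -0.48. Cyp1a1 and Tiparp, targets of the aryl hydrocarbon receptor, were at 3.32 and 2.06. The growth factor gene Hbegf stood at 36.4 and 186 CPM. Areg, another ligand of the EGF receptor, had 0 UMIs in the f/f and 51 in the d/d venous cells, which is at least 18.3-fold higher against 3 counts over the class, but these UMIs lay in 2 cells. The predicted gene AY036118 was at 2.32 in venous cells and at 2.89, 2.48 and 2.18 in the neither class, arterial cells and stromal cells. All genes of this paragraph were chosen after their values were seen.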
